A study of Homo sapiens with 8 samples.

Results

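The H3K27ac landscape of YAP1, WWTR1, TEAD1, TEAD4, CCN1, CCN2, ANKRD1, AMOTL2, LATS2 and AJUBA was described in 4 medulloblastoma (MB) lines. These 10 genes were chosen by name, as the coactivators YAP and TAZ, 2 of their DNA-binding TEAD partners, and 6 genes known as targets or feedback regulators of that pair, out of 19962 protein-coding genes. The choice was made with earlier results of these data known, so counts set beside the share of all genes are descriptions only. A stitched enhancer was given to a gene when it overlapped the gene body or lay within 50 kb of the start site of the canonical transcript in GENCODE 44 (GRCh38). Under this rule the 10 genes held 24 of 26072 enhancers in MB002, 37 of 26317 in D425, 18 of 15286 in HDMB03 and 26 of 20875 in UW228.

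H3K27ac, a histone mark of active promoters and enhancers, was mapped by chromatin immunoprecipitation and sequencing in MB002, D425 and HDMB03, which are labelled as Group 3 (G3) MB, and in UW228, which is labelled as Sonic hedgehog (SHH) MB. No treatment is named for any line, and 1 H3K27ac library and 1 input library were made of each. D425 and UW228 grew in DMEM with serum, and MB002 and HDMB03 grew in a serum-free stem cell medium with growth factors. Medium and line cannot be told apart, and UW228 is the only line of its label. There were no replicates, and with 1 line against 3 an exact permutation test cannot go below p = 0.25, so no test was run and all values describe single libraries. The signal of an enhancer is its H3K27ac value minus its input value, each being the mean coverage per base pair, scaled by the authors to library size, times the length of the enhancer. An enhancer is a super enhancer (SE) when the authors' ranking by this signal put it above the bend of the curve, and otherwise a typical enhancer (TE). Rank 1 is the highest signal of a line. These values do not give the sequencing depth.

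YAP (from YAP1) and TAZ (from WWTR1) are transcriptional coactivators that bind no DNA themselves and act mainly through the TEAD transcription factors. The Hippo kinases MST and LATS phosphorylate both coactivators and keep them out of the nucleus when cells are crowded or rounded, whereas spreading, stiff substrate and serum factors release them. In the cerebellum YAP1 is known from the granule neuron precursors, the cells from which SHH MB arises.

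The lines differed in scale. SEs numbered 363 in MB002, 431 in D425, 302 in HDMB03 and 753 in UW228, and the median signal of an enhancer was 890.2, 716.6, 845.5 and 1690, respectively. Of 7 G3 marker genes, 3 were SE-associated in MB002, 3 in D425, 2 in HDMB03 and none in UW228. Of all genes 3.33%, 4.31%, 3.09% and 4.95% were, respectively. The input per base pair at OTX2 and MYC was 39.0 and 23.8 times that of the median enhancer in MB002. In D425 it was 53.2 and 63.2 times, and at OTX2 in HDMB03 6.84 times. NPR3 alone went the other way, with a summed signal of 25870 in UW228 and no enhancer in the G3-MB lines. Of 8 SHH marker genes, 7 had an enhancer in UW228 and none was SE-associated there, against 4.95% of all genes. In HDMB03 3 were SE-associated (GLI1, PTCH1 and PDLIM3), against 3.09%. None of 8 is near the share of all genes in UW228, so this count does not speak to the SHH label. By summed signal, UW228 was at least 2-fold above every G3-MB line at 2 of the SHH markers (SFRP1 and EYA1). A G3-MB line was at least 2-fold above UW228 at 4 (GLI1, GLI2, PTCH1 and PDLIM3). UW228 is called by its name here.

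SEs at these genes were most frequent in UW228. In UW228, 6 of the 10 genes were SE-associated (YAP1, WWTR1, TEAD1, CCN1, ANKRD1 and AMOTL2), where 4.95% of all protein-coding genes were. In D425, 3 were SE-associated (TEAD1, AMOTL2 and AJUBA), against 4.31% of all genes. In MB002, only TEAD1 was, against 3.33%, and in HDMB03 none was, against 3.09%. In total 7 genes had a SE in at least 1 line, and TEAD4, CCN2 and LATS2 had none. The UW228 count changed with how SEs were called. When the 302 top-ranked enhancers of each line were taken, an alternative chosen after seeing the data, the count in UW228 was 1 (WWTR1), against 2.11% of all genes, and in D425 it was 3, against 3.0%. When enhancers were ranked by mean signal per base pair, none of the 10 genes was SE-associated in any line, against 9.22% of all genes in UW228 and 2.82% in D425.

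**Figure D1:**
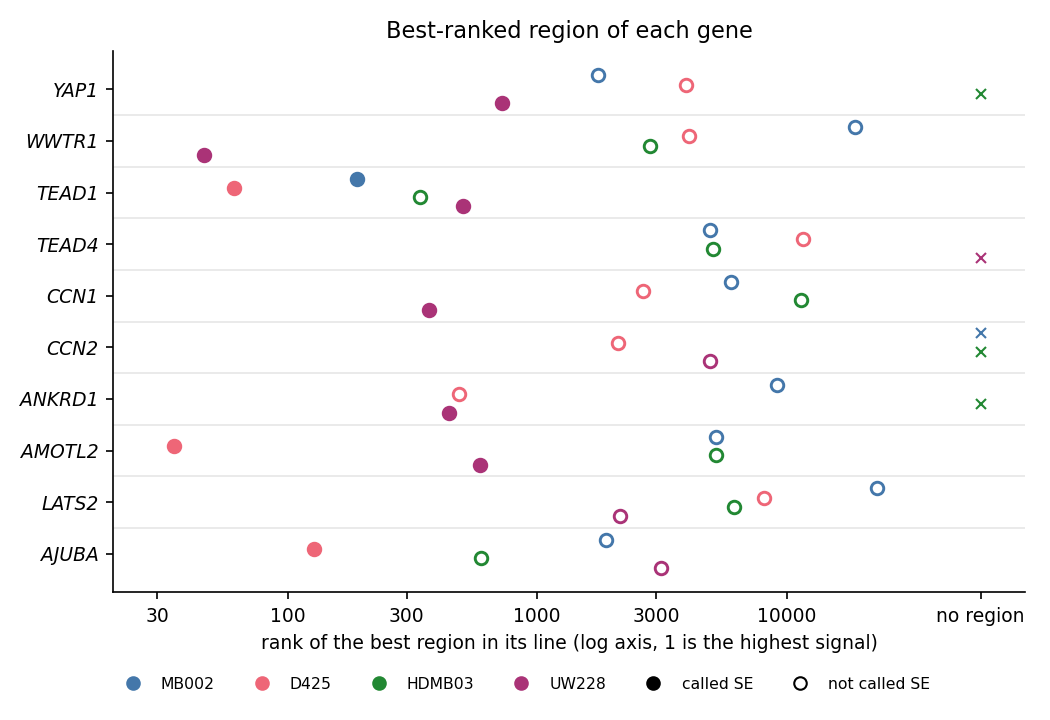
Rank of the best enhancer of each of the 10 genes (log axis, 1 is the highest signal of the line), coloured by line, with filled points for enhancers called SE, open points for TEs and crosses where no enhancer fell under the rule. UW228 points are filled for 6 genes, D425 points for 3 and the MB002 point for TEAD1, and HDMB03 has no filled point.

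The signal summed over all enhancers of a gene was then compared between the lines. In UW228 the summed signal was at least 2-fold that of the highest G3-MB line for 3 genes (WWTR1, CCN1 and LATS2), as it was for 20.5% of the 17746 genes with an enhancer in any line. In the other direction, the highest G3-MB line was at least 2-fold above UW228 for 3 genes (TEAD4, AMOTL2 and AJUBA), as it was for 61.2% of those genes. UW228 was the highest of the 4 lines for 5 genes, against 29.0% of all genes. D425 was the highest for 3, against 26.3%, MB002 for 2, against 28.5%, and HDMB03 for none, against 16.2%. The lead of UW228 at YAP1 (1.61-fold) and ANKRD1 (1.55-fold) was smaller than its lead over the next line in median enhancer signal. The count of the highest line was not repeated after division by the median signal. Long genes collect more enhancers under this rule, so summed signals are compared here between lines for each gene. Genes are set against each other per base pair, apart from the search for the nearest pattern, which used summed signals. The median signal per base pair over those of the 10 genes with an enhancer was 0.675 in MB002, 0.482 in D425, 0.382 in HDMB03 and 0.79 in UW228. Over all genes with an enhancer it was 0.588, 0.537, 0.526 and 0.647, respectively. With the mean signal per base pair, none of the 10 genes was at least 2-fold above every G3-MB line in UW228, where 11.6% of all genes were.

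**Figure D2:**
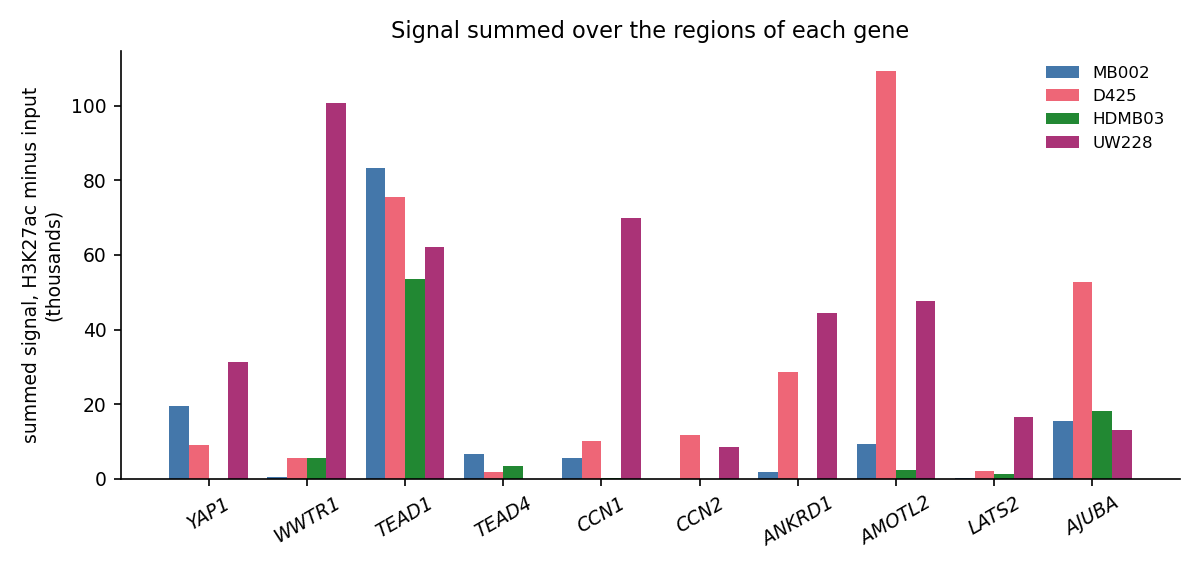
Signal (H3K27ac minus input, axis scaled down as labelled) summed over the enhancers of each of the 10 genes, with 1 bar per line starting at 0 and 1 library behind each bar. WWTR1, CCN1 and LATS2 stand out in UW228, AMOTL2 and AJUBA in D425, and TEAD1 is tall in all 4 lines.

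YAP1 (ENSG00000137693.14, chromosome 11, 102110447 to 102233424, plus strand) encodes the coactivator YAP. Its summed signal was 19527 in MB002, 9122 in D425 and 31451 in UW228, and no enhancer was listed for it in HDMB03, where the nearest lay 310.1 kb away. UW228 was thus 1.61-fold above MB002, the next line. The median enhancer signal differed more between these lines, with 1690 in UW228 and 890.2 in MB002. Per base pair MB002 was higher, with 0.744 against 0.546 in UW228. The lines also used other parts of the gene. In UW228 a SE of 42.4 kb and 15 peaks lay from 26.5 to 68.9 kb into the gene, at 102136942 to 102179332, with rank 720. The lowest SE of that line had a signal of 24480, and this SE had 25264, so its call lay close to the bend of the curve. Enhancers of MB002 covered 4.4% of this SE and those of D425 covered 1.27%. The best enhancers of MB002 (rank 1759) and D425 (rank 3962) instead began 101.3 kb and 101.4 kb into the gene, in its 3′ part, and the D425 enhancer lay entirely inside that of MB002. UW228 had a TE that overlapped this part, with rank 6408, which covered 47.2% of the MB002 enhancer. MB002 and D425 also shared an intronic enhancer, which began 76.1 kb into the gene in MB002 and 77.0 kb in D425.

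None of the 4 lines had an enhancer over the YAP1 start site. The methods excluded the flanks of start sites within 2.5 kb, yet some deposited enhancers overlap a start site, and the part of that exclusion in a missing enhancer was not tested. The 250 bases before the start site (GRCh38.p14, RefSeq, 11:102110197-102110446, plus strand) are shown because they hold the letters that TEAD factors are known to prefer. The TEAD letters searched were CATTCC on either strand, and they are in capitals here and in the sequences that follow.

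YAP1 promoter: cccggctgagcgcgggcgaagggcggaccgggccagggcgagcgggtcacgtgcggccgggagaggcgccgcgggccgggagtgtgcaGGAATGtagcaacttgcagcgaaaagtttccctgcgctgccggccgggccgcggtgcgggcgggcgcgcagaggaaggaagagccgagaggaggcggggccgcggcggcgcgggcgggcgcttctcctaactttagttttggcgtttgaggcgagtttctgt

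At least 1 match was found in 10.1% of 15315 RefSeq promoters of this length. The YAP1 promoter had a single match, 162 bases before the start site. Of the 10 genes 7 had an entry in the promoter table. A match is a description of letters and not of a bound site.

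WWTR1 (ENSG00000018408.15, chromosome 3, 149517235 to 149736714, minus strand) encodes TAZ, the paralog of YAP. It had the widest difference between the lines of the 10 genes, apart from genes with no enhancer in a line. Its summed signal was 502 in MB002, 5643 in D425, 5564 in HDMB03 and 100720 in UW228, which was 17.8-fold above D425. The UW228 signal came mostly from a SE of 119.4 kb and 31 peaks at 149506636 to 149626041, with rank 46 of the line. It ran from 32.0 kb downstream of the start site past the 3′ end of the gene and overlapped 5 exons. This SE also met the rule for TM4SF4, whose start site was the closest to its centre, so it cannot be given to WWTR1 alone. Every WWTR1 enhancer of D425 and HDMB03 lay inside this SE, and these covered 13.3% and 33.2% of it. MB002 had 3 short enhancers at WWTR1, together 1.2 kb long, with a best rank of 18814. UW228 also had a TE of 5.9 kb over the start site, which no G3-MB line had. Per base pair the gap was smaller, with 0.79 in UW228, 0.431 in MB002, 0.356 in D425 and 0.14 in HDMB03. The log2 ratio of UW228 to the mean of the G3-MB lines was 4.69, and it was 0.73 when only enhancers closest to the WWTR1 start site were kept, which gives the SE to TM4SF4.

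TEAD1 (ENSG00000187079.20, chromosome 11, 12674421 to 12944737, plus strand), a DNA-binding partner of both coactivators, was covered by long enhancers in every line. The summed signal was 83172 in MB002, 75600 in D425, 53524 in HDMB03 and 62088 in UW228. MB002, the highest, was 1.34-fold above UW228, and the lines lay closer together for TEAD1 than for any other of the 10 genes. Its best enhancers ranked 189 in MB002, 61 in D425, 340 in HDMB03 and 504 in UW228. The HDMB03 enhancer was a TE 38 ranks below the last SE of that line. UW228 had a further TEAD1 SE of 29.4 kb, with rank 726, that began 1.0 kb after the start site. All 3 other lines had an enhancer at that place, and they covered between 57.9% and 71.8% of it. The main SE of UW228 lay from 88.4 to 169.3 kb into the gene and was covered to 81.9% by MB002, 75.8% by D425 and 67.7% by HDMB03. Together the TEAD1 enhancers were 158.3 kb long in MB002, 108.3 kb in D425, 81.6 kb in HDMB03 and 130.5 kb in UW228. The relative input density, which sets the input per base pair of an enhancer against the median enhancer of its line, was 1.49 at the D425 SE and between 0.862 and 0.97 at the SEs of MB002 and UW228. Division by this density turned the log2 ratio of UW228 to the G3-MB mean from −0.19 to 0.16.

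TEAD4 (ENSG00000197905.10, chromosome 12, 2959330 to 3040676, plus strand), a further TEAD factor, showed the opposite pattern to WWTR1. Its summed signal was 6809 in MB002, 2005 in D425 and 3461 in HDMB03, and no enhancer was listed in UW228, where the nearest lay 65.7 kb away. All TEAD4 enhancers were TEs, with best ranks of 4951 in MB002, 11599 in D425 and 5086 in HDMB03. MB002 and HDMB03 shared an intronic enhancer that began 71.2 kb and 71.4 kb into the gene, and D425 had a smaller one inside it. These also met the rule for TSPAN9, and the best D425 enhancer overlapped TULP3, so they cannot be given to TEAD4 alone. Signal per base pair was 0.384 in MB002, 0.151 in D425 and 0.382 in HDMB03. TEAD1 per base pair was higher than TEAD4 in all 3 G3-MB lines.

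**Figure D3:**
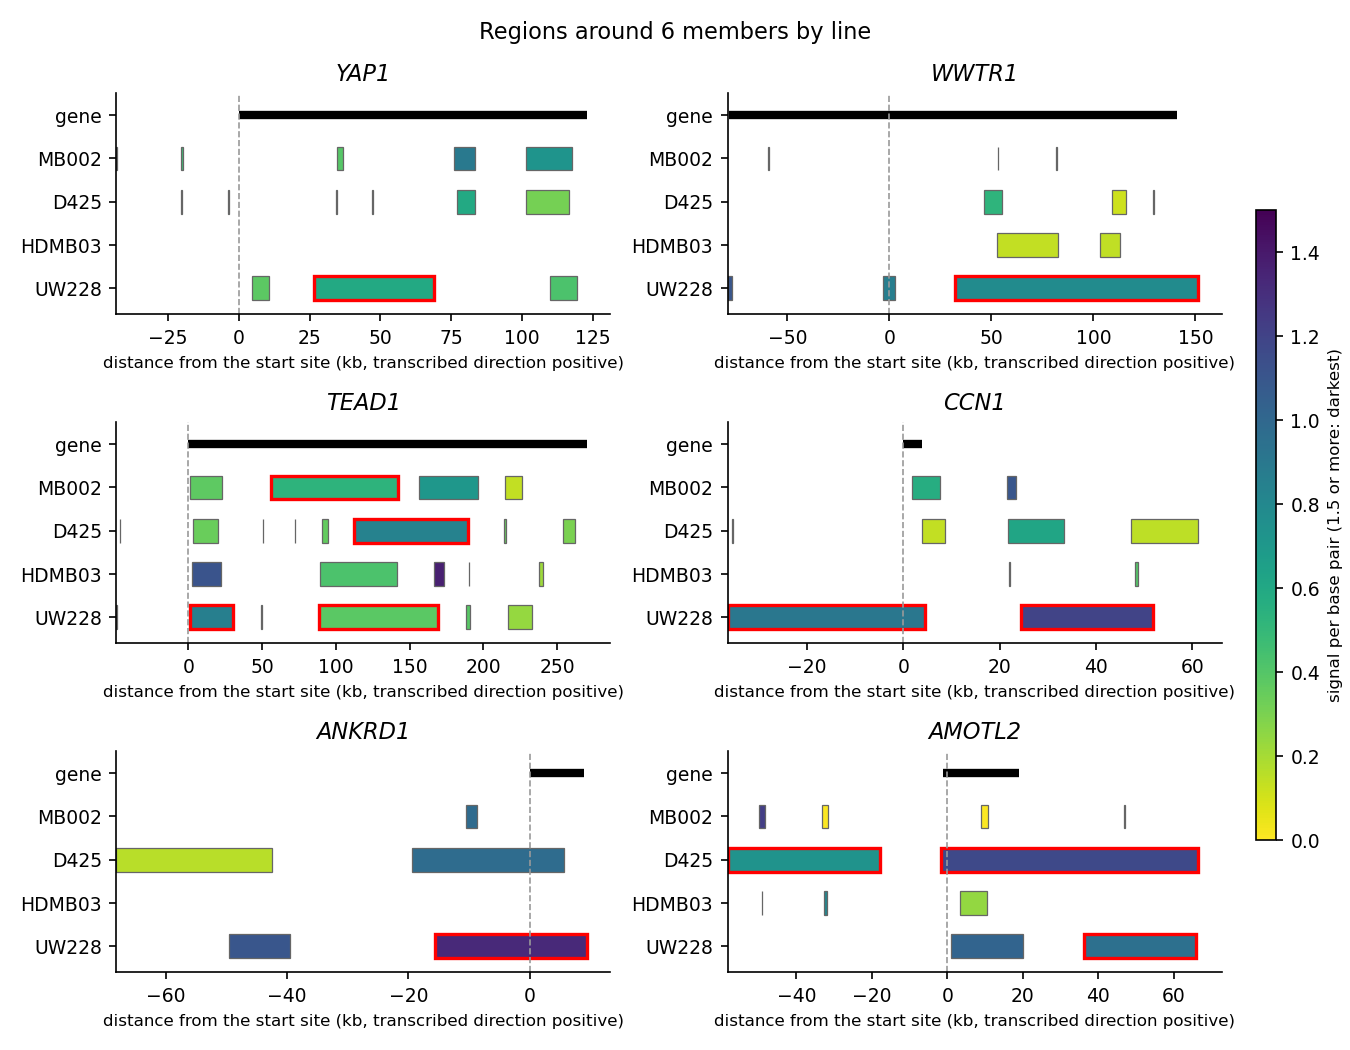
Enhancers around 6 of the genes in each line, by distance from the start site in kb with the transcribed direction positive, shaded by signal per base pair and outlined in red where called SE; the black bar is the gene and the dashed line the start site. At TEAD1 the enhancers of the 4 lines lie over each other, whereas at YAP1, WWTR1 and CCN1 the UW228 SEs cover stretches that are mostly empty in MB002.

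The targets CCN1, CCN2 and ANKRD1 are the genes most often used as readouts of YAP and TAZ activity. CCN1 and CCN2 encode secreted matricellular proteins, and ANKRD1 encodes an ankyrin repeat protein of muscle and stressed cells. In HDMB03, CCN1 alone of the 3 had any enhancer, and in MB002 CCN1 and ANKRD1 had TEs only.

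CCN1 (ENSG00000142871.18, chromosome 1, 85580761 to 85584589, plus strand) had a summed signal of 5519 in MB002, 10107 in D425, 385 in HDMB03 and 69913 in UW228. UW228 was 6.92-fold above D425. It held a pair of SEs in UW228. The SE of rank 370 ran from 36.5 kb upstream to 4.4 kb downstream of the start site, covered all 5 exons of CCN1 and overlapped the neighbouring gene DDAH1, so it cannot be given to CCN1 alone. The SE of rank 451 lay from 24.3 to 51.8 kb downstream of the start site and met the rule for no other protein-coding gene. D425 enhancers covered 49.3% of this downstream SE but 1.84% of the SE over the gene. The best MB002 enhancer, with rank 5977, lay over the 3′ end of CCN1, and the best HDMB03 enhancer had rank 11395 and a length of 0.7 kb. The relative input density of both UW228 SEs was higher than that of the other SEs in that line at these genes, with 1.45 and 1.44.

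CCN2 (ENSG00000118523.6, chromosome 6, 131948176 to 131951372, minus strand) had enhancers only in D425 and UW228, the lines grown with serum. The summed signal was 11867 in D425 and 8565 in UW228, and the nearest enhancer lay 471.5 kb away in MB002 and 179.7 kb away in HDMB03. All were TEs, with a best rank of 2116 in D425 and 4928 in UW228. They lay at different places. The best D425 enhancer lay from 22.5 to 32.4 kb upstream of the start site, whereas the best UW228 enhancer, of 6.7 kb, covered the start site and reached all 5 exons. The CCN2 enhancers of UW228 covered 12.4% of those of D425.

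ANKRD1 (ENSG00000148677.7, chromosome 10, 90912096 to 90921087, minus strand) had a summed signal of 1752 in MB002, 28697 in D425 and 44395 in UW228. No enhancer was listed in HDMB03, and the nearest lay 267.7 kb away. UW228 was 1.55-fold above D425, and both lines were far above MB002. The median enhancer signal differed more between UW228 and D425, with 1690 and 716.6. The SE of UW228, with rank 443, ran from 15.6 kb upstream to 9.4 kb downstream of the start site and thus covered the whole gene. The best D425 enhancer covered 85.5% of it but was a TE, with rank 485 in a line of 431 SEs. Signal per base pair over these enhancers was 1.33 in UW228 and 0.978 in D425. The single MB002 enhancer, of 1.8 kb, lay inside both and had 0.98 per base pair. The SE of UW228 and the D425 enhancer over the start site also met the rule for RPP30.

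The 250 bases before the CCN2 start site (GRCh38.p14, RefSeq, 6:131951373-131951622, minus strand) and before the ANKRD1 start site (10:90921088-90921337, minus strand) are shown because they lie inside the UW228 enhancers over those start sites and hold repeated TEAD letters.

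CCN2 promoter: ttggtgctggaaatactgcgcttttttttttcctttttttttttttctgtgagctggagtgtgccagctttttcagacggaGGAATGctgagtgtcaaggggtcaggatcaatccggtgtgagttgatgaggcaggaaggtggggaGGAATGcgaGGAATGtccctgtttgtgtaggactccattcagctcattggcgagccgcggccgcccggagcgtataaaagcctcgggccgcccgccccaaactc
ANKRD1 promoter: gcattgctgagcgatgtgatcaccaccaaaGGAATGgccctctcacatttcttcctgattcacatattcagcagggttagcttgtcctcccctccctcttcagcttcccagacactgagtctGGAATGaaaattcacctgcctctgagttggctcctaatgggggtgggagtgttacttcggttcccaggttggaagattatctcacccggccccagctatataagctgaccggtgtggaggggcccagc

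CCN2 had 3 matches, at 169, 104 and 95 bases before the start site, and at least 3 were found in 0.0784% of the 15315 promoters. ANKRD1 had 2, at 220 and 128 bases before the start site, and at least 2 were found in 0.757%. ANKRD1 also held the AP-1 letters TGANTCA, 195 bases before the start site, as 5.02% of promoters did. The D425 enhancer at ANKRD1 covered the same 250 bases, whereas the D425 enhancers at CCN2 began 3.4 kb upstream of the start site. In the promoters of WWTR1, AMOTL2, LATS2 and AJUBA neither set of letters was found, and the WWTR1 entry began 45248 bases from the start site used here.

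AMOTL2, LATS2 and AJUBA encode regulators that act on the coactivators or on their kinases. Angiomotin-like 2 binds YAP at cell junctions, LATS2 is a kinase that phosphorylates YAP and TAZ, and AJUBA is a LIM domain protein that holds back the LATS kinases. The 3 genes differed from each other in the line with the highest signal, which was D425 for AMOTL2 and AJUBA and UW228 for LATS2.

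AMOTL2 (ENSG00000114019.15, chromosome 3, 134355347 to 134375479, minus strand) had a summed signal of 9372 in MB002, 109230 in D425, 2447 in HDMB03 and 47670 in UW228. D425 was 2.29-fold above UW228 and both were above the other lines. The D425 SE of rank 35 ran from 1.8 kb upstream to 66.5 kb downstream of the start site, over the whole gene. UW228 split the same stretch into a TE over the gene, with rank 1100, and a SE of 29.6 kb downstream of it, with rank 590, and both lay entirely inside the D425 SE. Signal per base pair was 1.17 in the D425 SE, 0.954 in the UW228 SE and 1.02 in the UW228 TE. Over all AMOTL2 enhancers of a line it was highest in MB002, with 1.61, against 1.01 in D425, 0.979 in UW228 and 0.3 in HDMB03. D425 had a further SE from 17.9 to 58.2 kb upstream, with rank 356, in which UW228 had no enhancer. MB002 and HDMB03 had short TEs inside both D425 SEs, which covered between 2.35% and 10.6% of each. The log2 ratio of UW228 to the G3-MB mean, 0.24, became −0.56 with the gene body alone, −0.98 with a window of 25 kb and 1.04 without enhancers at the start site.

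Stretches of 200 bases inside 2 of these SEs (GRCh38, plus strand) are shown as those with the most TEAD letters in the downstream SEs of AMOTL2, at 3:134323979-134324178, and of CCN1, at 1:85612949-85613148.

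AMOTL2 downstream enhancer: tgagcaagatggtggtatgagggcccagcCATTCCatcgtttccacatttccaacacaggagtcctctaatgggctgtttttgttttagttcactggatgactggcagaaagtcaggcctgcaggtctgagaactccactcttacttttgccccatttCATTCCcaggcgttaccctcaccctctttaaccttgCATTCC
CCN1 downstream enhancer: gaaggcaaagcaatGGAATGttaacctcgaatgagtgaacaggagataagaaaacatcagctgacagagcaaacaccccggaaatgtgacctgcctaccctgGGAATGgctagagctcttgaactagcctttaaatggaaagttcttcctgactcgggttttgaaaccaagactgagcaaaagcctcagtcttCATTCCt

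Each held 3 matches, and at least 3 were found in 0.0515% of the 736463 stretches of this length in UW228 enhancers. They were picked for this number, so it supports nothing. The AMOTL2 stretch lay inside SEs of D425 and UW228, and the CCN1 stretch inside a UW228 SE and a D425 TE. Neither lay in an enhancer of MB002 or HDMB03. Over its full length the AMOTL2 SE of UW228 held 1.25 TEAD matches per kb and the downstream CCN1 SE held 1.02, whereas the YAP1 SE held 0.354. All 8 SEs of UW228 at these genes together held 0.679 per kb, against 0.621 over all SEs of that line, and the 4 of D425 held 0.727 against 0.604. The MB002 SE at TEAD1 held 0.573 against 0.624. The number of AP-1 matches was 0.413 per kb in the 8 UW228 SEs and 0.39 in all SEs of UW228. It was 0.425 against 0.316 in D425 and 0.479 against 0.322 in MB002.

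LATS2 (ENSG00000150457.9, chromosome 13, 20973036 to 21061586, minus strand) had a summed signal of 134.5 in MB002, 2081 in D425, 1299.7 in HDMB03 and 16517 in UW228. UW228 was 7.94-fold above D425, yet no LATS2 enhancer was a SE. The best UW228 enhancer, of 24.6 kb with rank 2145, lay in introns from 43.2 to 67.8 kb downstream of the start site. The best enhancers of D425 (rank 8128) and HDMB03 (rank 6159) lay entirely inside it. MB002 had a single enhancer of 0.2 kb upstream of the gene, with rank 23082. Signal per base pair was 0.43 in UW228, 0.116 in D425, 0.114 in HDMB03 and 0.553 in the short MB002 enhancer.

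AJUBA (ENSG00000129474.17, chromosome 14, 22971177 to 22982551, minus strand) had a summed signal of 15480 in MB002, 52774 in D425, 18196 in HDMB03 and 13240 in UW228, and D425 was 3.99-fold above UW228. The values around AJUBA are shared with its neighbours. The D425 SE, with rank 127, ran from 25.4 kb upstream to 17.1 kb downstream of the AJUBA start site, overlapped AJUBA, C14orf93 and an unnamed gene (ENSG00000259132), and also met the rule for CDH24, HAUS4, PRMT5, PSMB11, PSMB5 and RBM23. PSMB5, which encodes a catalytic subunit of the proteasome, had a summed signal under the same rule of 15480 in MB002, 52683 in D425, 18196 in HDMB03 and 22013 in UW228. In MB002 and HDMB03 both genes had the same enhancers. The best MB002 enhancer (rank 1894) lay from 10.6 to 25.6 kb and the best HDMB03 enhancer (rank 593) from 12.4 to 25.5 kb upstream of AJUBA, both over C14orf93 and none over AJUBA. Only in D425 and UW228 did an enhancer overlap AJUBA itself. That of UW228, of 6.7 kb with rank 3132, lay from 1.9 to 8.6 kb into the gene, inside the D425 SE. With the mean signal per base pair, the log2 ratio of UW228 to the G3-MB mean turned from −1.12 to 0.37.

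Across the 10 genes, 6 had an enhancer in all 4 lines, 3 in 3 lines and CCN2 in 2. HDMB03 had the fewest, with 7 genes, against 58.1% of all genes, which was also the lowest share of the 4 lines. D425 had all 10, against 72.8% of all genes, MB002 9, against 70.7%, and UW228 9, against 61.7%. Enhancers over a start site were listed for WWTR1, CCN1, CCN2 and ANKRD1 in UW228 and for ANKRD1, AMOTL2 and AJUBA in D425. None was listed in MB002 and HDMB03, and whether the exclusion of start sites acted alike in all lines was not tested.

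The relative input density of their 105 enhancers lay between 0.317 and 2.73, and that of the 13 SEs between 0.714 and 1.49. The range between the 5th and the 95th percentile of all enhancers reached from 0.289 to 2.09 in D425 and from 0.321 to 1.92 in UW228. Each of the enhancers lay in that range of its own line, apart from a TEAD1 enhancer of 0.2 kb in D425, which had the highest value. When the signal was divided by this density, 6 genes in UW228 and 4 in D425 were SE-associated. The share of all genes under this ranking was not computed, so these counts cannot be set against it.

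**Figure D4:**
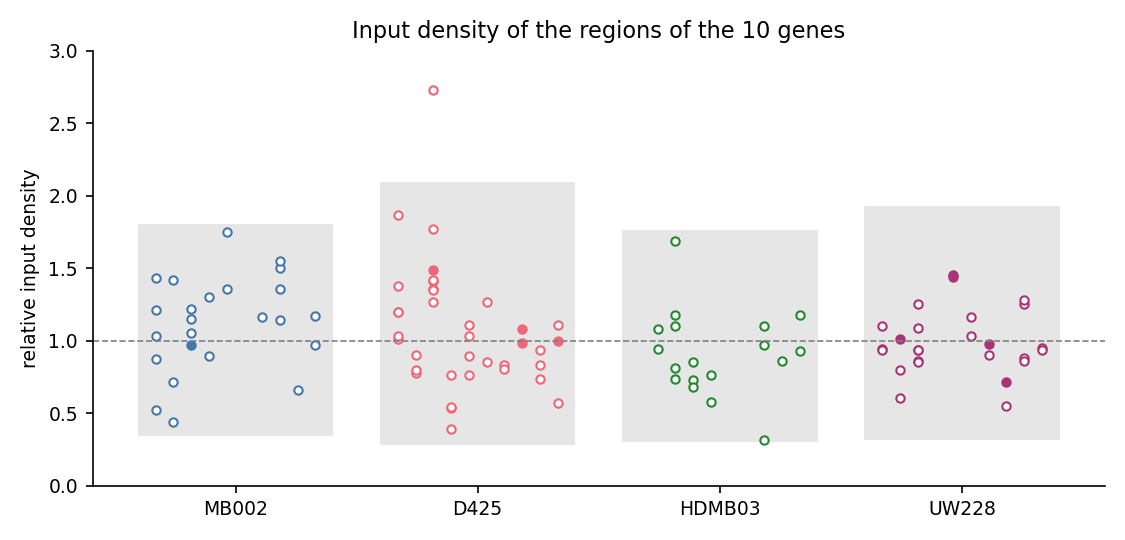
Relative input density (input per base pair over the median of the line) of the 105 enhancers of the 10 genes, with filled points for SEs, and from left to right within each line in the order from YAP1 to AJUBA; the shaded band reaches from the 5th to the 95th percentile of all enhancers of the line. The 13 SEs lie between 0.714 and 1.49, inside the band of their line.

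The other genes of the pathway were taken from a list of 35, with 14 kinases and regulators, 4 nuclear partners and 17 further targets. This list was also chosen with earlier results of these data known. Of the 17 targets, 8 were SE-associated in UW228 (MYOF, F3, CRIM1, GADD45A, PTPN14, ARHGEF17, NUAK2 and TGFB2), or 47.1%, where 4.95% of all genes were. In MB002 1 was (GADD45A), against 3.33%, in HDMB03 1 (TGFB2), against 3.09%, and in D425 none, against 4.31%. The best enhancers of F3, TGFB2 and ARHGEF17 in UW228 ranked 316, 308 and 383, outside the 302 top-ranked enhancers used above. Counts under other SE calls were not made for the 35 genes. The summed signal in UW228 was at least 2-fold that of the highest G3-MB line for 11 of the 17, against 20.5% of all genes, and the reverse held for 2, against 61.2%. PTPN14, a phosphatase that binds YAP, had 131670 in UW228 and 11894 in MB002, 15399 in D425 and 16406 in HDMB03. MYOF, a membrane repair protein, had 106560 in UW228 and 27043 in MB002, 14642 in D425 and 19476 in HDMB03. F3, the tissue factor of blood clotting, had 56361 in UW228 and 1079 in D425 and was listed at 0 in MB002 and HDMB03. CRIM1 and TGFB2 were also highest in UW228, with 72857 and 60166. NUAK2, a kinase of the AMPK family, was different, since its SE of rank 168 in UW228 came with a summed signal of 52992, below the 96713 of MB002.

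Of the 14 kinases and regulators, 3 were SE-associated in UW228 (STK4, NF2 and FRMD6), or 21.4% against 4.95% of all genes. In D425 3 were SE-associated as well (LATS1, NF2 and WWC1), against 4.31%, and none was in MB002 or HDMB03. STK4, the kinase MST1, had a summed signal of 69245 in UW228, against 414 in MB002 and 870 in HDMB03, and was listed at 0 in D425. FRMD6 had 53022 in UW228 and between 2684 and 2946 in the G3-MB lines. LATS1, which acts as LATS2 does, was lowest in the line where LATS2 was highest, with 23123 in MB002, 32246 in D425, 5673 in HDMB03 and 553 in UW228. WWC1, the scaffold KIBRA, had 97810 in D425 and at most 5973 in the other lines, with rank 25 in D425. NF2, the membrane scaffold merlin, was SE-associated in D425 and UW228, with 30646 and 26362, and had 36354 in MB002 without a SE. In this list 3 genes were at least 2-fold higher in UW228, against 20.5% of all genes, and 5 in a G3-MB line, against 61.2%.

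Of the 4 nuclear partners, VGLL4, a cofactor that competes with YAP for TEAD factors, was SE-associated in UW228, with 108060 there and 37405 in MB002, the next line. VGLL3, a cofactor of the same family, was SE-associated in D425, with a best rank of 12 and a summed signal of 247290, against 24910 in UW228 and 378 in HDMB03, and it was listed at 0 in MB002. Of these partners 1 was at least 2-fold higher in UW228 and 3 in a G3-MB line, against the same shares of 20.5% and 61.2%.

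**Figure D5:**
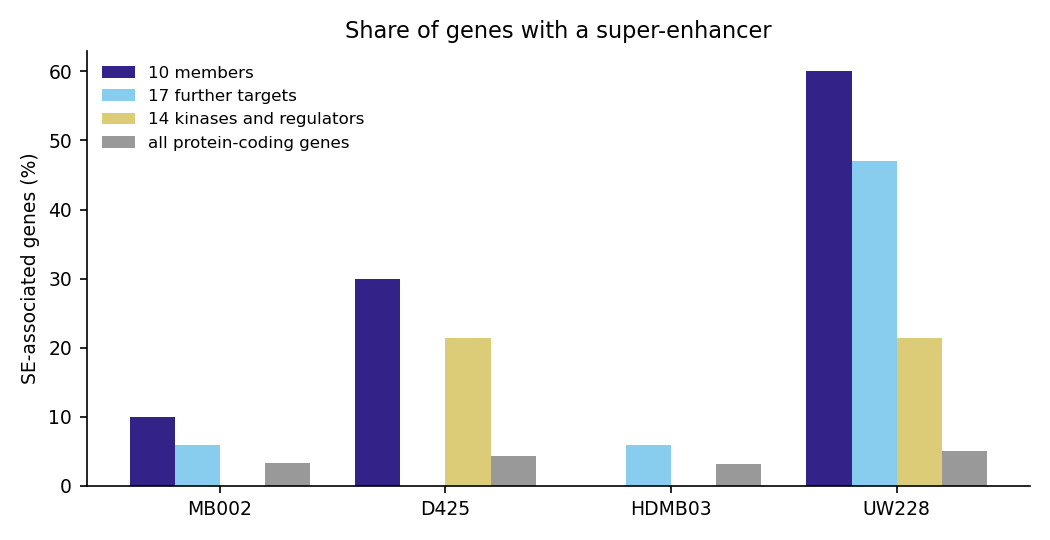
Share of SE-associated genes (%) in each line among the 10 genes, 17 further targets, 14 kinases and regulators and all protein-coding genes, with bars starting at 0. In UW228 the share was 60.0% of the 10 genes, 47.1% of the targets and 21.4% of the kinases and regulators, against 4.95% of all genes.

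The genes with the pattern nearest to the mean of the 10 over the 4 lines, by Euclidean distance of log2(signal + 1), were ASF1A at a distance of 0.889, CDK5RAP2 at 0.907, ERVFRD-1 at 1.1, PLEKHF2 at 1.13 and TICAM1 at 1.16. ASF1A, for instance, had a summed signal of 1105 in MB002, 16520 in D425, 349 in HDMB03 and 11580 in UW228. None of the 5 belonged to the pathway list, and with 4 values a gene the likeness is a description.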

How the data were processed

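The data are 1 H3K27ac library and 1 input library for each of 4 MB lines. Per the submitters' processing notes, reads were aligned to GRCh38 with Bowtie2 2.3.0, handled with SAMtools 1.9 and peaks were called with MACS2 2.2.6. The authors stitched peaks with ROSE, and the table headers name a distance of 12 kb. The deposited tables give an H3K27ac signal and an input signal per enhancer, which the authors computed as coverage per base pair scaled to library size and multiplied by length. The deposited score is the rank, and the deposited count of peaks and SE call were used as given. The methods exclude 2.5 kb around start sites, yet some deposited enhancers overlap a start site.

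Tables were analysed in pandas 2.3.3 and numpy 2.4.6 under Python 3.11.15, with plots from matplotlib 3.10.9. Input was subtracted and the result floored at 0. The start site was that of the canonical transcript, on chromosomes 1 to 22 and X, for 19962 protein-coding genes of GENCODE 44. Assignment and cutoff were tested on simulated data, and the letter search was not. The depth is unknown, so no counting error was given. The genes named were the 10 genes, every listed pathway gene that was SE-associated in a line, PSMB5, genes sharing a SE with a member, and the 5 genes of nearest pattern. Genes named outside this rule were chosen after their values were seen. The members and lists were chosen with earlier results of these data known. Alternatives were other windows, closest gene, no start site enhancers, no input subtraction, division by relative input density or by the median signal, mean signal per base pair, a recomputed cutoff and a 4-fold limit.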

Additional observations from a re-analysis of the deposited data

How the results depend on the processing

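No paired analysis was possible because each line has 1 H3K27ac library and 1 input library. The 5′ end of the gene, an equal number of top-ranked enhancers and division by the summed signal were alternatives chosen after seeing the data. Of 109 comparisons of a count with its alternatives, 103 stayed within 1.5-fold, but some of them could not change. Alternatives that only rescale the signal leave the number of genes with an enhancer as it was. Division by the median signal also leaves the SE calls as they were. The mean signal per base pair left 0 SE-associated genes in MB002, 0 in D425 and 0 in UW228, and 0 genes at least 2-fold higher in UW228. The start site window without the gene body left 0 SE-associated genes in MB002. The 302 top-ranked enhancers left 1 in UW228. Otherwise the SE-associated count was 5 to 6 in UW228 and 2 to 4 in D425, it was 0 in HDMB03 under all alternatives, and the 2-fold count was 3 to 4. The log2 ratio of UW228 to the G3-MB mean changed sign for TEAD1, to 1.14 with the start site window alone, 0.016 with the closest gene and 0.16 after division by relative input density. It changed sign for AMOTL2, to −0.56 with the gene body alone, −0.98 with 25 kb and −0.97 after division by the median signal. It changed sign for CCN2, to −0.41 without start site enhancers and −0.12 after division by the median signal, and for AJUBA, to 0.049 with 100 kb and 0.37 per base pair. The cause was not tested. The ratio stayed above 0 for WWTR1 (0.73 to 5.96), CCN1 (1.08 to 5.06), LATS2 (0.72 to 4.48), YAP1 (0.52 to 5.68) and ANKRD1 (0.91 to 2.51). The unknown depth and the single libraries limit all values.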

Other observations

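Among the other pathway genes, some targets had a high signal in UW228 without a SE call, and they are named here after their values were seen. ASAP1, an Arf GTPase-activating protein, had a summed signal of 95709 in UW228, spread over 11 enhancers with a best rank of 820, and between 3203 and 9246 in the G3-MB lines. RBMS3, an RNA-binding protein, had 86323 in UW228 over 15 enhancers and 13022 in D425, the next line. NT5E, the surface nucleotidase CD73, had 25016 in UW228 and 8703 in D425 and was listed at 0 in MB002 and HDMB03. The receptor tyrosine kinase AXL had 10303 in UW228 and was listed at 0 in the other lines.

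The TEAD genes outside the 10 were, as TEAD4, lowest in UW228. TEAD2 had a summed signal of 16340 in MB002, 4966 in D425 and 20499 in HDMB03 and was listed at 0 in UW228. TEAD3 had 35369 in MB002, 23796 in D425, 26485 in HDMB03 and 7500 in UW228. Of the 4 TEAD genes, TEAD1 alone had a SE in UW228.

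The VGLL3 signal of D425 was spread over 42 enhancers with a relative input density of 0.714 and a signal per base pair of 2.92, against 0.511 in UW228.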
